A study of Mus musculus with 12 samples.

Results

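The integrated stress response and the unfolded protein response were followed through 10 genes, Atf4, Atf5, Ddit3, Trib3, Asns, Xbp1, Hspa5, Hsp90b1, Dnajb9 and Herpud1, in liver and quadriceps muscle of PGC1beta mutant and control mice. The members were the probe sets annotated with 1 of these symbols and no other, a rule that uses no measured value. They numbered 22 of the 45037 probe sets analysed and stood for 10 of 18193 genes. Total RNA had been hybridised to Affymetrix Murine 430 2.0 arrays, and the 12 arrays fell into 4 groups of 3: mutant liver, control liver, mutant quadriceps and control quadriceps. All mice carried the C57BL/6 background, and the mutant groups carried in addition a mutation of PGC1beta, the product of Ppargc1b, which coactivates transcription of genes for mitochondria and lipid metabolism. The labels describe neither the allele nor the age, sex or treatment of the mice. They also do not say that the arrays of a group came from separate animals, so the spread behind each p-value is that between these arrays, and part or all of it may be technical.

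Both responses are ways in which a cell adjusts to stress. In the integrated stress response, kinases that sense misfolded protein, amino acid shortage, viral RNA or haem deficiency phosphorylate the initiation factor eIF2, which lowers general translation while the transcription factor ATF4 is made more efficiently and switches on genes for amino acid supply. In the unfolded protein response of the endoplasmic reticulum (ER), the sensor PERK feeds into the same eIF2 pathway, IRE1 splices the Xbp1 mRNA into a form that encodes an active transcription factor, and ATF6 is cleaved and enters the nucleus. Hepatocytes secrete much of the protein of blood plasma and carry an extensive ER. The arrays measured RNA, and neither eIF2 phosphorylation nor the splicing of Xbp1 was read here.

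The promoters of 4 members held a motif of these pathways, and they are shown because these are the letters through which the factors are known to act. Windows of 250 bases before the transcription start were available for 10 of 10 members from RefSeq, build GRCm38.p6, and were searched on both strands for 4 motifs beside 32851 promoter windows in all. The ER stress response element ERSE, bound by ATF6 and XBP1 together with NF-Y, was searched as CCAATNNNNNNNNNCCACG and was found in 37 windows (0.113%). Its shorter relative ERSE-II was searched as ATTGG and CCACG with any single base between them and found in 10 windows (0.0304%). The C/EBP-ATF response element CARE, the site of ATF4 dimers, was searched as TGATGNAA and found in 1134 windows (3.45%). Capitals mark the fixed letters of the motif in each sequence, printed 5′ to 3′ on the strand of the gene.

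Hspa5, chr2:34772000-34772068, plus strand, 1 ERSE: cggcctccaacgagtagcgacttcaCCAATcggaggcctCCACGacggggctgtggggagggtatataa

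Hsp90b1, chr10:86705508-86705681, minus strand, 2 ERSE, the second on the opposite strand: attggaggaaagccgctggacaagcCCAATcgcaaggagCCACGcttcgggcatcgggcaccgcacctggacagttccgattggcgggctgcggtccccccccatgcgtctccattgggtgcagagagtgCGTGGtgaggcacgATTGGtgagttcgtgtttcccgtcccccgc

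Herpud1, chr8:94386292-94386412, plus strand, 1 CARE on the opposite strand and then 1 ERSE-II: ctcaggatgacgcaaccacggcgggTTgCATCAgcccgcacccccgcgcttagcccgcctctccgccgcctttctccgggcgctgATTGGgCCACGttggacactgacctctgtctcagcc

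Asns, chr6:7693210-7693257, minus strand, 1 CARE: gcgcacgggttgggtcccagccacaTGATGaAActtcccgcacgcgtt

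The Hspa5 motif lay 65 to 47 bases before the start, those of Hsp90b1 at 212 to 194 and 107 to 89 bases, the ERSE-II of Herpud1 at 52 to 42 and its CARE at 112 to 105, and the CARE of Asns at 23 to 16. An ERSE or ERSE-II was thus found in 3 of 10 members, all encoding proteins of the ER lumen or membrane, and in 8 of 105 other genes of the stress lists described below. Those 8 were Calr, Canx, Creld2, Derl3, Dnajc3, Ero1b, Pdia6 and Syvn1, which encode chaperones, oxidases and degradation factors of the ER. The unfolded protein response element, searched as TGACGTGG and found in 185 windows (0.563%), was in no member's window. A match is a description of the letters in these windows.

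The arrays matched their labelled tissues and differed in RNA quality in liver. Summed over 10 hepatocyte genes, normalized intensity was 98698 to 107349 in mutant liver, 113027 to 116994 in control liver and 288 to 702 in muscle. Summed over 10 muscle fibre genes it was 107245 to 108937 in muscle and 145 to 240 in liver. The 3′ to 5′ signal ratio of control transcripts, which grows when RNA is degraded, averaged 1.90, 0.90 and 1.87 on the log2 scale in liver mutants 1, 2 and 3, against 0.74, 0.97 and 0.50 in liver controls 1, 2 and 3. In muscle it lay between 0.33 and 0.56 in mutants and between 0.40 and 0.52 in controls. Liver mutants 1 and 3 therefore stood apart from the other 4 liver arrays. Some results are also given without both of them. Those for Herpud1, the ratios of probe sets and the cell type markers are not. Those fits keep 1 mutant array, mutant 2, which is assumed to vary as the controls do, since the spread then comes from the 3 controls alone.

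In mutant liver, RNA of the 10 members was not called different from control liver for any of them. Each gene was read from its brightest probe set on the log2(intensity + 16) scale after quantile normalization within the tissue, and differences are mutant minus control with their standard error (SE), tested with limma and Benjamini-Hochberg adjustment at 0.05. Of 13326 genes tested in liver, 3.35% were called, against 0 of 10 members. At an unadjusted p under 0.05 the count was 1 of 10 members, beside 19.6% of all genes. Member differences ran from -0.44 to 0.41 with a median of -0.09, against a median of 0.01 over all genes, and 4 of the 10 were positive. The count over all genes rested on single arrays, and was 0 without liver mutant 1 or without liver control 2, 43 without liver mutant 3, 26 and 27 without liver controls 3 and 1, and 739 without liver mutant 2, in place of 447. Those 447 were 310 higher and 137 lower, against 279 higher and 18 lower with the values as deposited and 150 higher and 14 lower with median centring.

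**Figure D1:**
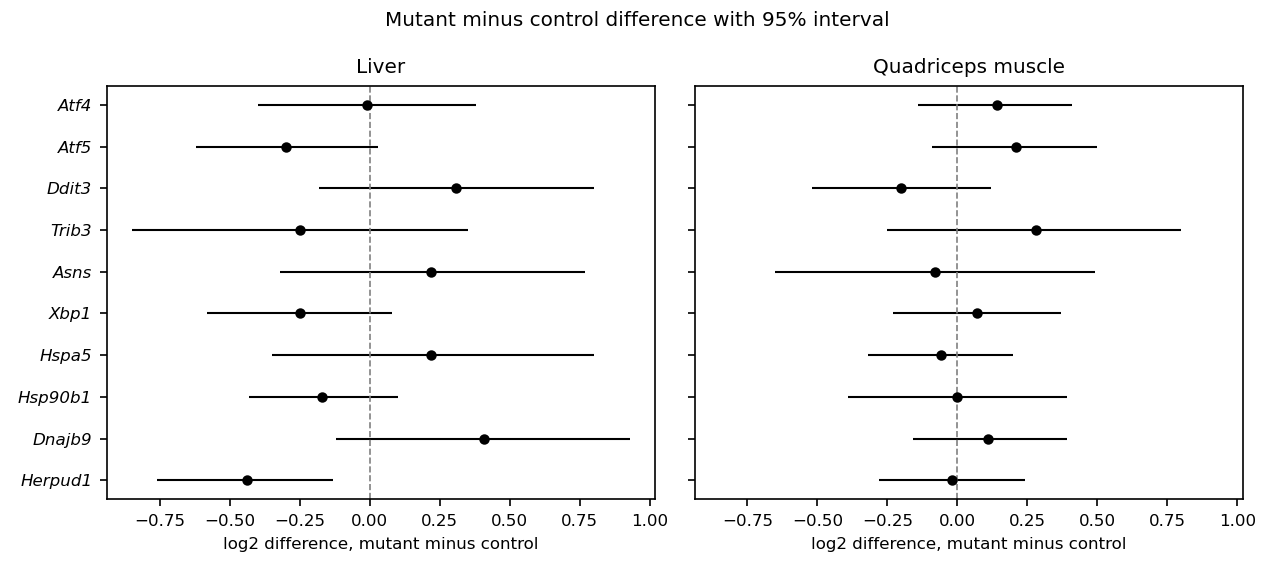
Log2 difference, mutant minus control, of each member in liver (left) and quadriceps (right), with points for the estimate and bars for the 95% interval from limma. In liver the interval of Herpud1 alone lies below 0, from -0.76 to -0.13 (adjusted p = 0.117), and in muscle every interval includes 0.

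The transcription factors of the integrated stress response came first. Atf4, the effector that all 4 eIF2 kinases share, read 903, 839 and 1068 in mutant liver, against 729, 1134 and 997 in control liver. The mutant arrays lay inside the range of the controls, and the log2 difference was -0.01 (SE 0.18, 95% interval -0.40 to 0.38, limma adjusted p = 0.985). Atf5, a related bZIP factor that is also translated more when eIF2 is phosphorylated, read 1346, 1264 and 1038 in mutants, against 1657, 1547 and 1284 in controls. Mutant 1 lay among the controls and mutants 2 and 3 below all of them, with a difference of -0.30 (SE 0.15, 95% interval -0.62 to 0.03, limma adjusted p = 0.302).

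Ddit3, which encodes the pro-apoptotic factor CHOP, read 103, 78.2 and 121 in mutant liver, against 58.6, 78.8 and 98.5 in control liver. Mutants 1 and 3, the arrays with the high 3′ to 5′ ratios, lay above every control, and mutant 2 lay among them. The log2 difference was 0.31 (SE 0.22, 95% interval -0.18 to 0.80, limma adjusted p = 0.496), and 0.02 without liver mutants 1 and 3 (limma adjusted p = 0.997).

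Among the genes downstream of ATF4, Trib3, a pseudokinase that restrains ATF4 and AKT signalling, read 157, 98.1 and 67.3 in mutant liver, against 96.0, 158 and 126 in control liver. The groups overlapped over most of their range, with a difference of -0.25 (SE 0.27, 95% interval -0.85 to 0.35, limma adjusted p = 0.678). Asns, the asparagine synthetase whose promoter CARE is shown above, read 253, 176 and 184 in mutants, against 211, 209 and 111 in controls. Mutant 1 was the highest array and control 3 the lowest, and the difference of 0.22 (SE 0.25, 95% interval -0.32 to 0.77, limma adjusted p = 0.679) lay within the spread between arrays.

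Xbp1, the transcription factor activated by IRE1, read 2700, 2780 and 3139 in mutant liver, against 3689, 2672 and 4041 in control liver. Control 2 lay below every mutant and the other controls above, which gave a difference of -0.25 (SE 0.15, 95% interval -0.58 to 0.08, limma adjusted p = 0.403). It was -0.03 with the values as deposited, -0.05 with median centring, -0.03 as the mean of its probe sets, and -0.43 without control 2 (limma adjusted p = 0.969, 0.925, 0.938 and 0.113).

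Among the ER chaperones, Hspa5 and Dnajb9 spread widely over the mutant arrays. Hspa5, which encodes BiP, the main Hsp70 chaperone of the ER and the regulator of its stress sensors, read 3676, 2029 and 4740 in mutant liver, against 2327, 3317 and 2873 in control liver. Mutants 1 and 3 exceeded all controls and mutant 2 fell below all of them, so that the difference of 0.22 had an SE of 0.26 (95% interval -0.35 to 0.80, limma adjusted p = 0.697). Its sign followed the arrays used: the difference was -0.04 without liver mutant 3, 0.57 without liver mutant 2 and -0.45 without liver mutants 1 and 3 (limma adjusted p = 0.962, 0.0802 and 0.611).

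Dnajb9, the BiP co-chaperone ERdj4 and a target of spliced XBP1, read 1461, 1106 and 2318 in mutant liver, against 1047, 1074 and 1416 in control liver. Mutants 1 and 3 again lay above all controls and mutant 2 between them, with a difference of 0.41 (SE 0.24, 95% interval -0.12 to 0.93, limma adjusted p = 0.388). Without liver mutant 3 it was 0.12 and without liver mutants 1 and 3 it was -0.07 (limma adjusted p = 0.808 and 0.97). When the 3′ to 5′ ratio was added as a covariate, the difference was -0.00 for Dnajb9 and -0.56 for Hspa5 (limma adjusted p = 0.999 and 0.637).

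Hsp90b1, which encodes the ER Hsp90 chaperone GRP94, read 1658, 1746 and 1990 in mutant liver, against 2191, 1865 and 2002 in control liver on its brightest probe set. Mutants 1 and 2 lay below all controls and mutant 3 among them, with a difference of -0.17 (SE 0.12, 95% interval -0.43 to 0.10, limma adjusted p = 0.499). As the mean of its probe sets, which are described below, the difference was -0.51 (SE 0.10, limma adjusted p = 0.0512). Herpud1, an ER membrane protein of ER-associated degradation, read 2068, 2518 and 2971 in mutants, against 3501, 3041 and 3670 in controls. It was the 1 member whose groups did not overlap, as held for 24% of all genes tested, with every mutant array below every control. Its difference of -0.44 (SE 0.14, 95% interval -0.76 to -0.13) did not pass (limma adjusted p = 0.117). It was -0.23 with the values as deposited (limma adjusted p = 0.604).

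The probe sets of a member did not always read alike in liver. Of the 22 probe sets, 20 exceeded the limit of 21.6 for testing in liver (the 40th percentile), and 1439258_at of Atf4 and 1443897_at of Ddit3 stayed below the limit in both tissues. With every probe set tested on its own, 1 of the 20 was called, beside 2.06% of 27022 probe sets. It was the second Hsp90b1 probe set, 1438040_a_at, with 1099, 1207 and 1027 in mutant liver, against 2040, 1920 and 2093 in control liver. Every mutant array lay well below every control, and the difference of -0.85 (SE 0.12, 95% interval -1.12 to -0.59, limma adjusted p = 0.022) was larger than the spread between arrays.

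That call on Hsp90b1 held its size and lost its adjusted p when arrays were left out. The difference ran from -0.92 to -0.80, with a limma adjusted p of 0.00759 without liver mutant 2, of 0.147 and 0.0716 without liver mutants 1 and 3, and of 0.0626, 0.077 and 0.0649 without liver controls 1, 2 and 3. Without both liver mutants 1 and 3 it was -0.72 (limma adjusted p = 0.426). With the values as deposited it was -0.70 and with median centring -0.72 (limma adjusted p = 0.0779 and 0.0628), and without the intensity trend the adjusted p from limma was 0.16. In muscle the same probe set differed by -0.12 (SE 0.16, limma adjusted p = 0.989), and the liver effect minus the muscle effect was -0.73 (SE 0.20, limma adjusted p = 0.103). The sources used here do not give which part of the transcript each probe set reads.

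Read as a log2 ratio within each array, which cancels the array's own scale, the first over the second Hsp90b1 probe set was 0.59, 0.53 and 0.94 in mutant liver, against 0.10, -0.04 and -0.06 in control liver. All 3 mutants lay above all 3 controls, and an exact permutation test gave p = 0.1 (two-sided), the smallest that 3 against 3 arrays allow. The second probe set had already been called without overlap on these same arrays, so this p is not independent support. Over the members, 6 of 10 such pairs of probe sets did not overlap between mutant and control liver, beside 16.9% of 9301 pairs over all genes. These 6 pairs belonged to Hsp90b1, where the ratio was higher in mutants, and to Atf4, Trib3, Xbp1 with 2 pairs, and Herpud1, where it was lower. The 2 Xbp1 pairs share their brightest probe set. The Atf4 and Trib3 pairs each include a probe set with the suffix _x_at, which marks possible cross-hybridisation with related transcripts. In muscle it was 0 of 8 member pairs, beside 9.31% of 9696 pairs. The 3′ to 5′ ratio of the control transcripts differed between the liver groups as given above, and its part in these ratios was not tested.

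A second Atf4 probe set, 1438992_x_at, read 388, 232 and 445 in mutant liver, against 129, 204 and 273 in control liver. Mutants 1 and 3 exceeded all controls and mutant 2 did not, and the difference of 0.78 (SE 0.29) did not pass (limma adjusted p = 0.194). Without liver mutants 1 and 3 it was 0.24 (limma adjusted p = 0.946). The suffix _x_at marks probe sets that can cross-hybridise with related transcripts. The 4 Xbp1 probe sets differed by -0.25, 0.15, 0.30 and -0.32 and the 3 of Hspa5 by 0.22, 0.13 and 0.44. Both Herpud1 probe sets differed by -0.44 and -0.24. Trib3 gave -0.25 on its brightest probe set and 0.12 on an _x_at probe set, and Asns gave 0.22 and -0.00 in the same order. None of these passed.

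**Figure D2:**
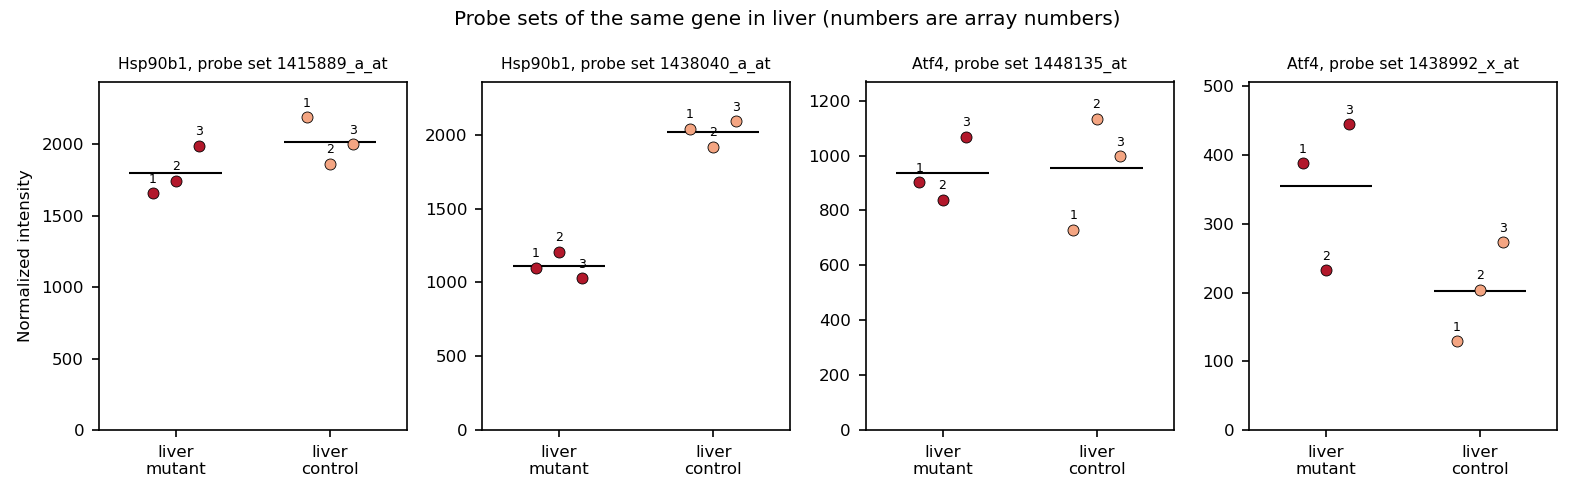
Normalized intensity of 2 probe sets each of Hsp90b1 and Atf4 in mutant and control liver, with 1 point per array, its number beside it and a line at the group mean. The second Hsp90b1 probe set averaged 1111 in mutant liver and 2018 in control liver, without overlap, and the first 1798 in mutant liver and 2019 in control liver, with overlap.

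In quadriceps muscle no member was called, and the arrays of both genotypes lay close together. Of 13131 genes tested, 0.0152% were called, and of 10 members 0, with 0 at an unadjusted p under 0.05, beside 4.26% of all genes. Member differences ran from -0.20 to 0.28 with a median of 0.03, against -0.00 over all genes, and adjusted p-values from 0.995 to 1. None of the members had groups apart, beside 9.54% of all genes. The 18 member probe sets tested gave 0 calls, beside 0.0074% of all probe sets.

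Atf4 read 1141, 965 and 1253 in mutant muscle, against 936, 1152 and 962 in control muscle, and the groups overlapped (difference 0.14, 95% interval -0.14 to 0.41, limma adjusted p = 0.995). Hspa5 read 936, 1068 and 974 in mutants, against 1037, 900 and 1189 in controls, a difference of -0.06 (95% interval -0.32 to 0.20, limma adjusted p = 0.997). On the scale of each tissue, the SD of Hspa5 over the 3 mutant arrays was 1366 around a mean of 3482 in liver and 68.0 around a mean of 993 in muscle. Ddit3 read 80.4, 67.4 and 70.8 in mutants, against 90.4, 90.2 and 78.0 in controls, and mutants 2 and 3 lay below all controls while mutant 1 did not (difference -0.20, 95% interval -0.52 to 0.12, limma adjusted p = 0.995). Trib3 was dim, with 17.0, 19.7 and 32.0 in mutants, against 17.4, 12 and 18.0 in controls, close to the offset of 16 that damps changes of dim genes. Its difference of 0.28 had a 95% interval of -0.25 to 0.80 (limma adjusted p = 0.995).

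The liver effect minus the muscle effect, the interaction of genotype and tissue, was called for 0 of 10 members, beside 1.42% of 11841 genes. At an unadjusted p under 0.05 it was 2 of 10, beside 15.5%. These were Atf5, with a difference between effects of -0.50 (SE 0.20, 95% interval -0.93 to -0.08, limma adjusted p = 0.23), and Herpud1, with -0.42 (SE 0.19, 95% interval -0.83 to -0.02, limma adjusted p = 0.303). The mutant effect on Atf5 was -0.30 in liver and 0.21 in muscle. Ddit3 had the largest positive value, 0.51 (SE 0.27, limma adjusted p = 0.386).

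The 2 tissues themselves differed in most members. With all 12 arrays normalized together and the control groups compared, 6 members were higher in control liver, 2 were lower and 2 did not pass, beside 54.3% of 14617 genes called in either direction, 26% higher and 28.3% lower. The median member difference, liver minus muscle, was 1.20, against -0.00 over all genes. The groups did not overlap for 9 of 10 members, beside 61.3% of all genes, and 17 of 20 member probe sets were called, beside 47.1% of all probe sets tested. In bulk tissue fewer cells of a type and less RNA per cell cannot be told apart.

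Xbp1 had 2806, 2044 and 3064 in control liver, against 507, 388 and 415 in control muscle. All liver arrays stood far above all muscle arrays, a log2 difference of 2.54 (SE 0.15, limma adjusted p = 4.94e-10) or 5.81-fold. Its other 3 probe sets gave 1.02, 1.17 and 1.38. Hsp90b1 had 1677, 1439 and 1539 in liver, against 405, 348 and 470 in muscle, a difference of 1.90 (SE 0.17, limma adjusted p = 4.91e-08), and 1.95 on its second probe set. Herpud1 had 2671, 2318 and 2791 in liver, against 865, 937 and 753 in muscle, again without overlap (1.59, SE 0.14, limma adjusted p = 4.2e-08).

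Atf5, a factor long known to be abundant in liver, had 1285, 1203 and 1006 in control liver, against 286, 343 and 280 in control muscle, without overlap (1.89, SE 0.14, limma adjusted p = 7.94e-09). Trib3 had 79.7, 131 and 105 in liver, against 23.0, 15.7 and 23.7 in muscle, also without overlap (1.71, SE 0.27, limma adjusted p = 4.15e-05). Asns had 175, 174 and 92.4 in liver, against 97.3, 78.5 and 52.9 in muscle. Liver control 3 lay below muscle control 1, and the difference of 0.80 (SE 0.27, limma adjusted p = 0.0201) did not pass without liver control 1, liver control 2 or muscle control 3 (limma adjusted p = 0.0843, 0.0834 and 0.0998).

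Atf4 and Ddit3 were the members with less signal in liver. Atf4 had 581, 894 and 789 in control liver, against 1322, 1660 and 1362 in control muscle, without overlap (-0.94, SE 0.16, limma adjusted p = 9.89e-05), and its second probe set gave -0.94 as well. Ddit3 had 47.8, 65.1 and 81.9 in liver, against 113, 113 and 97.6 in muscle (-0.63, SE 0.20, limma adjusted p = 0.012), and -0.47 without liver control 1 (limma adjusted p = 0.0656). Both calls depended on the normalization used between the tissues. With median centring both held, at -0.82 for Atf4 and -0.69 for Ddit3 (limma adjusted p = 0.00186 and 0.00732). With the values as deposited, which raised the median of all genes by 0.48 in liver over muscle, Atf4 differed by -0.15 and Ddit3 by -0.11 (limma adjusted p = 0.482 and 0.70), and 74.5% of all calls were higher in liver, against 48% after quantile normalization.

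Hspa5 and Dnajb9 did not pass between tissues, and Hspa5 lay close to the threshold. Hspa5 had 1778, 2530 and 2197 in control liver, against 1474, 1262 and 1716 in control muscle, without overlap (0.54, SE 0.23, limma adjusted p = 0.0545). It passed under 9 of 25 alternatives, among them the fit of the control arrays only, array weights, the mean of its probe sets and the fit without liver mutant 2 (limma adjusted p = 0.0105, 0.0365, 0.0209 and 0.00615). Its probe sets disagreed, with 0.54, 1.26 and -0.05, and the middle value passed (limma adjusted p = 0.000181). The last value came from an _x_at probe set. Dnajb9 had 826, 848 and 1106 in liver, against 774, 724 and 702 in muscle (0.32, SE 0.20, limma adjusted p = 0.197). With the values as deposited both were called higher in liver, at 1.31 for Hspa5 and 1.03 for Dnajb9 (limma adjusted p = 8.23e-05 and 0.000664), and with median centring neither was, at 0.64 and 0.36 (limma adjusted p = 0.0574 and 0.194).

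**Figure D3:**
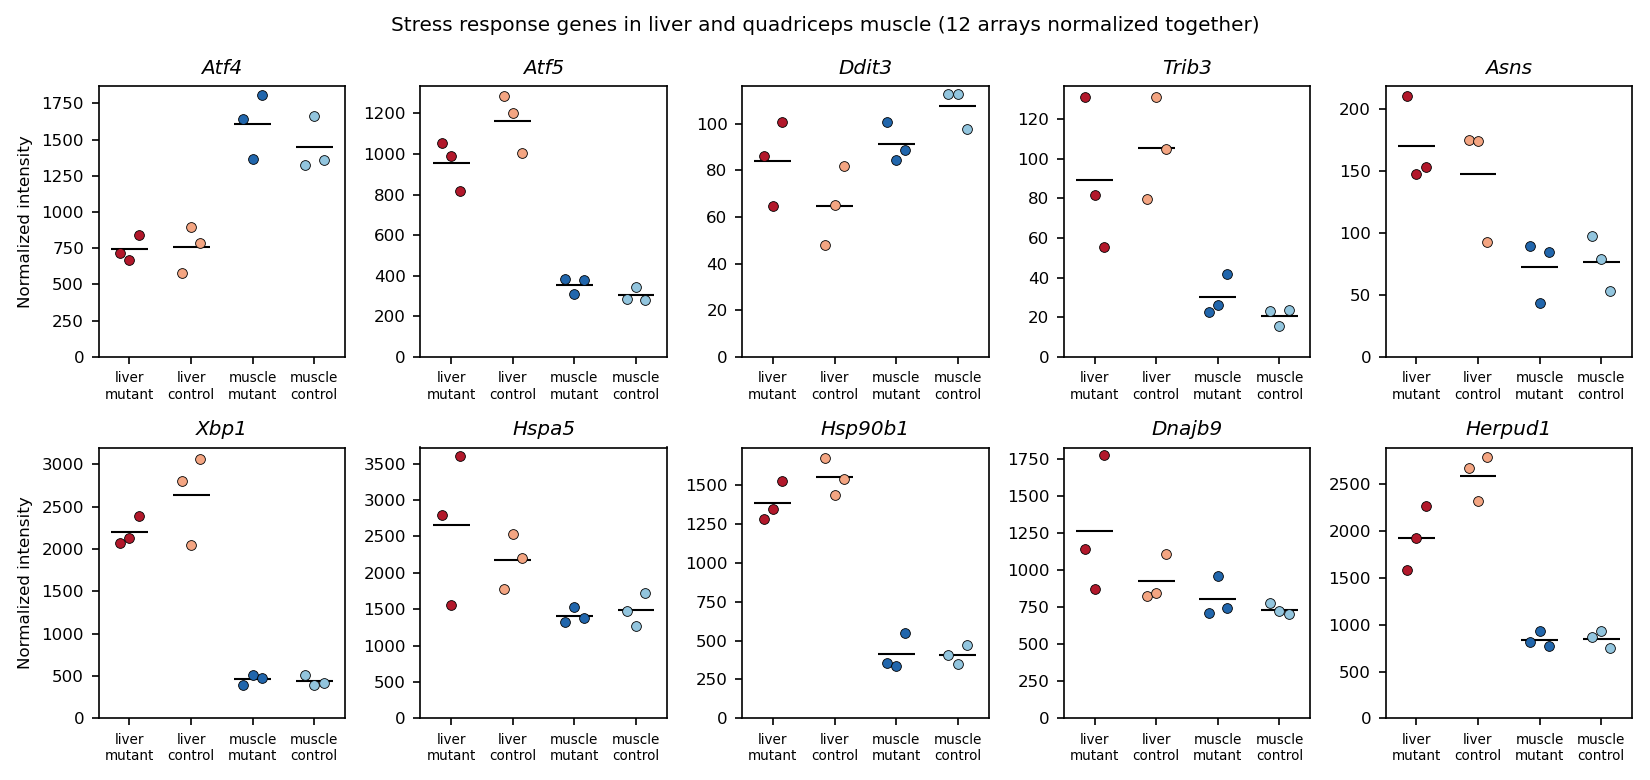
Normalized intensity of the 10 members in mutant liver, control liver, mutant muscle and control muscle, with 12 arrays normalized together, 1 point per array and a line at the group mean. Xbp1, Atf5, Hsp90b1, Herpud1 and Trib3 lie higher in all liver arrays than in all muscle arrays, while the Hspa5 mutant liver arrays spread from 1559 to 3603.

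**Figure D4:**
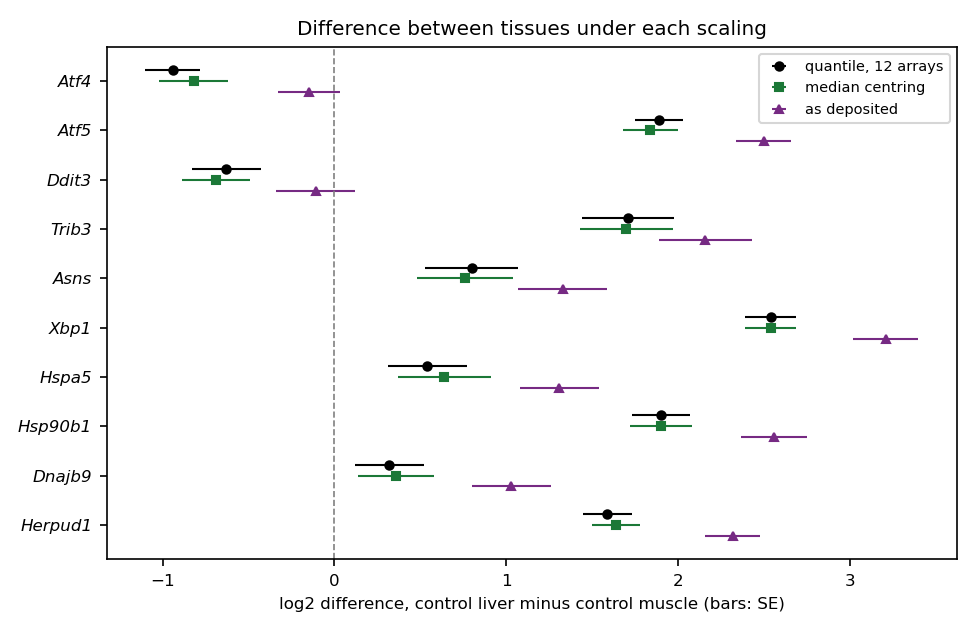
Log2 difference, control liver minus control muscle, of each member under 3 scalings, with bars for the SE. Atf4 and Ddit3 lie at -0.94 and -0.63 after quantile normalization and at -0.82 and -0.69 with median centring. With the values as deposited they lie at -0.15 and -0.11.

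The rest of the pathway was read from 6 further lists with 124 measured genes. Of 21 sensors and eIF2 factors tested in liver, such as the eIF2 kinases, Ern1 and Atf6, 0 were called, with a median difference of 0.01. Of 24 ER chaperones and folding enzymes 0 were called (median 0.03), and of 14 cytosolic heat shock chaperones 0 (median 0.18). At an unadjusted p under 0.05, where 19.6% of all genes lay, these lists had 3, 4 and 3 genes. The remaining lists had 4 of 23 ATF4 target genes, 14 of 24 genes of ER-associated degradation and export and 8 of 13 mitochondrial genes. The median over all genes was 0.01.

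Of 23 ATF4 target genes tested in liver, 2 fell and 0 rose (median -0.02), beside the 3.35% of all genes called in liver. Shmt2, the mitochondrial serine hydroxymethyltransferase, read 1311, 1560 and 1477 in mutant liver, against 2280, 2025 and 2111 in control liver, with a difference of -0.56 (SE 0.12, limma adjusted p = 0.0345). Slc38a2, an amino acid transporter, read 657, 867 and 518 in mutants, against 1204, 1095 and 1311 in controls (-0.83, SE 0.18, limma adjusted p = 0.0378). Neither gene's groups overlapped, as held for 24% of all genes tested in liver.

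Of 24 genes of ER-associated degradation and ER export, 1 rose and 2 fell (median -0.11), again beside 3.35% of all genes. Sec61b, a subunit of the ER protein channel, read 2241, 2126 and 2252 in mutant liver, against 1446, 1520 and 1388 in control liver (0.60, SE 0.11, limma adjusted p = 0.0225). Sec24d and Sec31a, coat proteins of vesicles that leave the ER, fell by 0.61 and 0.81 (SE 0.13 and 0.19, limma adjusted p = 0.0377 and 0.0495). Of 13 mitochondrial chaperones and proteases, 2 rose and 1 fell (median -0.19), beside the same 3.35%. Hspe1 and Hspd1 encode the partners of the mitochondrial chaperonin, and Hspe1 rose by 0.43 (SE 0.10, limma adjusted p = 0.0391) while Hspd1 fell by 0.58 (SE 0.11, limma adjusted p = 0.0255). Grpel1, the nucleotide exchange factor of the mitochondrial Hsp70, rose by 0.59 (SE 0.12, limma adjusted p = 0.0318).

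The calls on these 8 list genes in liver were lost without liver mutant 1 (adjusted p from limma 0.126 to 0.213), as they were without liver mutant 3 or any 1 of the liver controls, with no change of sign. None of the 8 passed with median centring (adjusted p from limma 0.0564 to 0.309) or without the intensity trend (0.142 to 0.213), and with the values as deposited Sec61b, Grpel1 and Hspe1 passed. Without liver mutants 1 and 3 the differences were -0.44 for Shmt2, -0.44 for Slc38a2, 0.54 for Sec61b, -0.52 for Sec24d, -0.34 for Sec31a, -0.54 for Hspd1, 0.43 for Grpel1 and 0.37 for Hspe1. In muscle 0 genes of any of the 6 lists were called, with medians from -0.16 to 0.05, and at an unadjusted p under 0.05 there were 1 of 23 ATF4 targets, 2 of 15 heat shock and 3 of 13 mitochondrial genes and 0 of the other 3 lists, beside 4.26% of all genes. Of the mitochondrial list 12 of 13 had lower means in mutant muscle, with 0 called and a median of -0.16, against -0.00 over all genes. The share of all genes with lower means was not counted. For the difference between the tissue effects 1 gene, Hspe1, was called, beside 1.42% of all genes. Between the control tissues 21 of 24 ER chaperones were higher in liver and 1 was lower (median 1.41), beside 26% of all genes higher and 28.3% lower, and with the values as deposited 23 were higher and 0 lower. Of 25 ATF4 target genes 5 were higher and 9 lower, also with median centring, but 12 higher and 4 lower with the values as deposited. This split thus differed between the normalizations, and how the deposited values were scaled is not known.

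**Figure D5:**
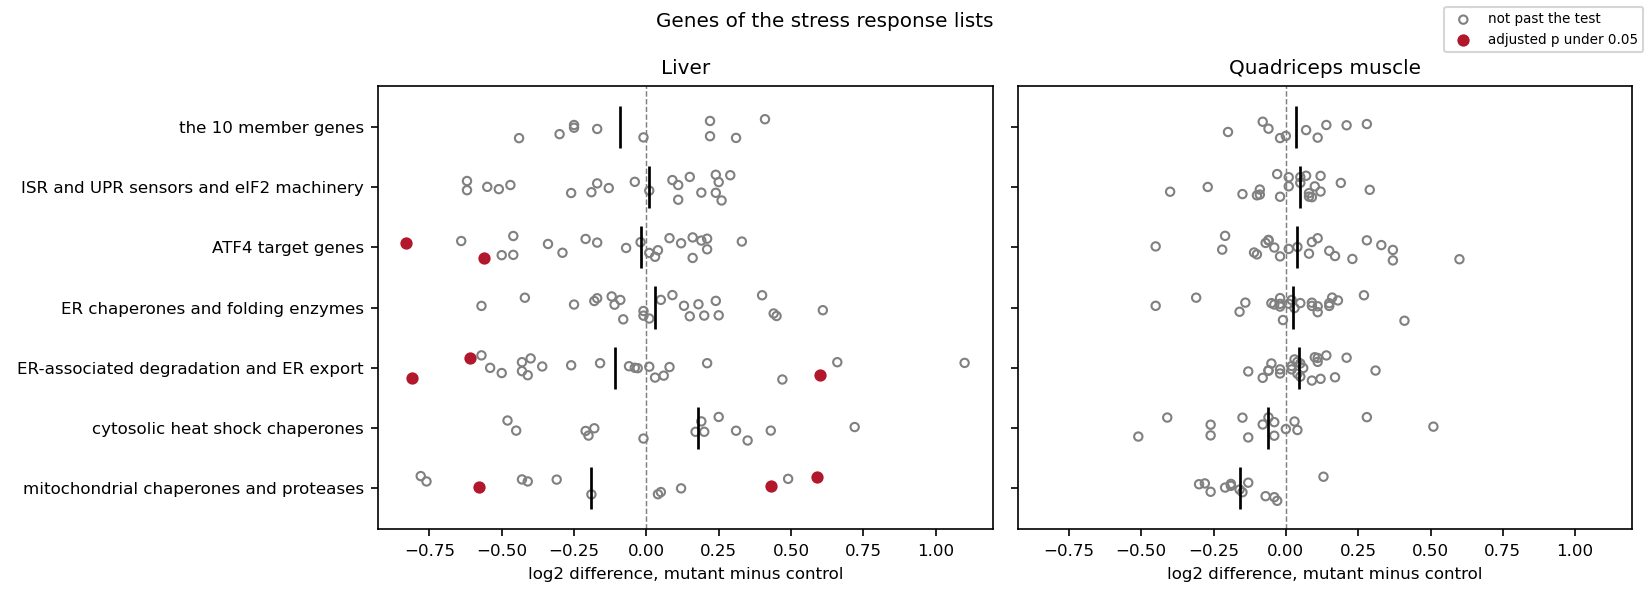
Log2 difference, mutant minus control, of every tested gene of the members and of 6 lists in liver (left) and quadriceps (right), with filled points for an adjusted p under 0.05 and a black line at each list's median. The 8 filled points, all in liver, lie in the ATF4 target, ER degradation and export, and mitochondrial lists.

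Other cell types were read in the same arrays. Summed over 10 Kupffer cell and macrophage genes, intensity was 3235 to 4133 in mutant liver, against 2000 to 2838 in control liver. Of the 10, 2 rose, Lyz2 and Tyrobp, beside the 3.35% of all genes called in liver. The sum over 7 measured plasma and B cell genes, cells rich in Xbp1 and ER chaperones, was 1307 to 1312 in mutant liver, against 1552 to 1760 in control liver. Of 5 tested genes 0 were called, beside the same 3.35%. In that sum Sdc1, which hepatocytes also express, averaged 1028 in mutant liver and 1379 in control liver. Jchain (52 in mutant liver and 48.4 in control liver), Cd79b (36.4 and 29.3), Ms4a1 (65.4 and 53.3) and Mzb1 (97.8 and 88.5) had higher means in mutant liver. Cd79a (16.7 and 21.4) and Tnfrsf17 (13.8 and 23.3), which were too dim to be tested, had lower means there. Among hepatocyte genes 1 of 10, Tat, fell, again beside 3.35%. The calls on Lyz2, Tyrobp and Tat were not read with arrays left out. No marker gene was at 0 in any group. The part of these cells in the member values was not tested.

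How the members moved together from array to array was described for Hspa5 and Asns. Over 12 arrays, with each gene centred on its tissue's mean, the genes most like Hspa5 by Pearson correlation among 11840 were Nckipsd (0.93), Srpk1 (0.93), Lias (0.91), Creld2 (0.91) and Rbm42 (0.90). Creld2 is itself a gene of the ER chaperone list with an ERSE in its promoter. Among the members Dnajb9 (0.75) and Ddit3 (0.64) were nearest to Hspa5, at ranks 140 and 517 among the 11840 genes. Hsp90b1 (0.04), whose promoter also holds ERSE, and Xbp1 (-0.09) were not close. The genes most like Asns were Il17rb (0.89), Stk25 (0.88), Plekha4, Pi4k2b and Alad (0.87 each). Its nearest member was Atf5 (0.37), at rank 1796. The arrays share RNA quality and scale, which enter all of these values.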

How the data were processed

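The authors deposited 1 column of linear intensity per array, with 1 value for each probe set. The sources used here do not say how these values were summarised and scaled, and per the labels' design text d-Chip served for clustering. Medians per array were 27.2 to 40.1 in liver, and in muscle 20.1 to 22.3. The number of arrays limits the precision, and no pair of arrays was a duplicate. After 64 control probe sets were removed, 34945 probe sets had 1 symbol, 932 had several and 9160 had none, and 34741 symbols were checked through Entrez identifiers. The probe set with the highest mean log2 value over 12 arrays stood for a gene.

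Since liver medians differed by 0.38 on the log2 scale, above a bound of 0.2, arrays were quantile-normalized within tissue (together for the tissue comparison). Values were taken as log2(value + 16). Genes with a mean above the 40th percentile of a tissue were tested with limma 3.58.1 in R 4.3.3 (intensity trend), with p-values adjusted by Benjamini-Hochberg over every gene tested and a threshold of 0.05. Fits within a tissue had 4 residual degrees of freedom and fits to 12 arrays had 8. Plots were made in Python 3.11.15 (matplotlib 3.10.9), and the fits were tested on simulated data.

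The members, lists and tests were chosen with earlier results of these data known. Named are the members, up to 4 genes with the smallest p of each list, and the 5 genes most like Hspa5 and Asns. Of each list, those that passed are given, and the marker genes that passed, as well as the ratios of probe sets and the second probe sets of Hsp90b1 and Atf4, were picked out after their values were seen. Replicate numbers were not used to pair the samples in the main fits. Alternatives are given in the closing section. Scanner files were not used here, so background correction and probe summaries were kept as deposited.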

Additional observations from a re-analysis of the deposited data

Results flagged for a closer look

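Hspe1, the mitochondrial co-chaperonin, differed between the tissues in its response to the mutation. The liver effect minus the muscle effect was 0.71 (SE 0.14, limma adjusted p = 0.0323), with 4531, 4452 and 4853 in mutant liver, against 3648, 3395 and 3207 in control liver, and with means of 725 ± 50.6 in mutant muscle and 886 ± 89.5 in control muscle (SD, n = 3 each). It ran from 0.64 to 0.78 with 1 array left out. The call was then lost without liver mutants 1 or 3, liver controls 2 or 3, muscle mutants 1 or 2, or any muscle control, with adjusted p-values over its alternatives from 0.0225 to 0.323 (limma).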

How the results depend on the processing

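The member counts were 0 in liver, muscle and the difference under 21, 19 and 25 alternatives, and 7 to 9 in place of 8 between tissues under 25. With 1 array left out these counts ran from 0 to 0 and from 7 to 9. The 8 members between tissues were not the same under each setting. They were 6 higher and 2 lower in the main fit, and 8 higher and 0 lower with the values as deposited. For the mean of all probe sets they were 7 higher and 1 lower. Calls over all genes in liver ran from 0 (no intensity trend, or without liver mutants 1 and 3) to 1025 (threshold of 0.1) in place of 447, with 219 without a filter, 297 as deposited, 164 with median centring, 172 for the mean of all probe sets, 994 with 12 arrays fitted and 2 with the 3′ to 5′ covariate. In muscle they ran from 0 to 2 and for the difference from 0 to 390. Between tissues 7330 to 14564 were called, the last over probe sets.

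Signs of uncalled members turned in places, and the cause was not tested. In liver Atf4 was 0.10 as deposited, 0.08 with median centring and 0.17 as the mean of its probe sets, and Hsp90b1 was 0.01 as deposited. With the 3′ to 5′ covariate Asns was -0.19, Hspa5 -0.56 and Dnajb9 -0.00, and without liver mutants 1 and 3 Hspa5 was -0.45 and Dnajb9 -0.07. In muscle Hsp90b1 was 0.00 with an offset of 64, 0.03 as deposited and 0.05 with median centring, and Herpud1 was 0.02, 0.04 and 0.04 as deposited, with median centring and as a mean. As means of probe sets Asns was 0.06, Xbp1 -0.01 and Hspa5 0.03. For the difference Atf4 was 0.07 as a mean, Asns -0.14, Hspa5 -0.49 and Dnajb9 -0.06 with the covariate, and Hspa5 -0.39 and Dnajb9 -0.19 without liver mutants 1 and 3.

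With 1 array left out, the liver difference ran from -0.19 to 0.12 for Atf4, -0.53 to 0.00 for Trib3, -0.05 to 0.37 for Asns and -0.04 to 0.57 for Hspa5. In muscle it ran from -0.27 to 0.19 for Asns, -0.16 to 0.04 for Hspa5, -0.20 to 0.12 for Hsp90b1, -0.01 to 0.19 for Dnajb9 and -0.10 to 0.05 for Herpud1. The difference of effects ran from -0.28 to 0.03 for Hsp90b1.

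Deviations of arrays with the same number correlated at -0.01, -0.12 and -0.03 in liver, against -0.08 to 0.11 for unlike numbers. Between control tissues they correlated at -0.02, -0.00 and 0.01, against -0.02 to 0.02. In muscle they correlated at 0.04, 0.09 and 0.20, against -0.16 to 0.09 for unlike numbers. Whether the numbers pair the muscle arrays is not known from these values. With the replicate number as a block 0 members were called in liver, muscle and the difference and 8 between tissues, and 11, 2, 26 and 7805 genes in all. The second Hsp90b1 probe set then had a limma adjusted p of 0.0733. Alternatives for single probe sets and for list counts between tissues were added after the data had been seen. Probe sets near the offset of 16, such as Trib3 in muscle, limit what these arrays can show.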
